A study of Saccharomyces cerevisiae with 2 samples.

Results

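The right end of chromosome III of budding yeast carries HMR, a silent copy of the mating-type genes, and runs on through a stretch of subtelomeric genes to the telomere. The nucleosome positions described here are all those with a centre above 286 kb on chromosome III (genome build sacCer2), 803 of the 8357 positions in 4 lists. They were taken by coordinate alone. Each of 2 libraries, 1 per group, has a paired-end and a single-end list, both made by the authors. In the H2A.Z lists 207 of 2264 paired-end and 177 of 1859 single-end positions lay above 286 kb, and in the total lists 233 of 2353 and 186 of 1881 did. In the paired-end lists the first centre inside the bound lay at 286121 in both libraries, and the last centre outside it lay at 285952 in the H2A.Z list and at 285946 in the total list.

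Both groups came from strain yFR212, a W303 strain of genotype MATa that is GAL+ and psi+, with the marker alleles his3-11,15, trp1-1, ura3-1, ade2-1 and can1-100 and a leu2 gene with the mutations 3 and 112. The strain carries HTZ1::3myc, a Myc-tagged form of the gene for the histone variant H2A.Z. Cells were grown in rich medium (YPD) and crosslinked with formaldehyde, and their chromatin was cut with micrococcal nuclease (MNase), which prefers the linker DNA between nucleosomes. For the H2A.Z library, single nucleosomes were pulled down by an antibody to Myc; for the total library there was no antibody step. A library precipitated from an untagged strain was not analysed here. With 1 library per group there is no replicate error, so no difference between the libraries is tested and no p-value is given. The lists hold no read counts, so the depth is unknown.

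As background, yeast mating type is set by the genes at the active MAT locus, while HML and HMR hold further copies kept silent by the Sir proteins. Silencers at both edges of HMR recruit these proteins, which bind deacetylated nucleosomes and spread along them, and a tRNA gene beside HMR is known as a barrier to that spread. H2A.Z takes the place of H2A mainly in nucleosomes beside the nucleosome-depleted DNA of promoters. In yeast it is also known to limit the spread of silencing into genes near HMR and the telomeres. HMR shares sequence with MAT and HML. A MATa strain carries the a-specific sequence at both MAT and HMR, whereas the reference genome carries it at HMR alone, so over that sequence DNA of the silent and of the active copy cannot be told apart. How reads from shared sequence were placed is not given in the sources used here.

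In the gene table of assembly R64, 17 genes run from CDC39 to the right end of the chromosome, of which 16 code for proteins. CDC39, which encodes the scaffold of the Ccr4-Not complex, is followed by CDC50, which encodes a subunit of a phospholipid flippase, OCA4 and YCR095W-A. Next come HMRA2 and HMRA1, the genes of the silent cassette. HMRA1 is a silent copy of the gene for the a1 homeodomain protein. A tRNA gene (YNCC0014W) and GIT1, which encodes a permease for glycerophosphoinositol, lie to the right of them. YCR099C, EMA35, YCR101C and YCR102C come next. The last are PAU3, a seripauperin gene, ADH7, which encodes an alcohol dehydrogenase, RDS1, which encodes a zinc cluster transcription factor, AAD3, which encodes a putative aryl-alcohol dehydrogenase, and YCR108C. This table belongs to another build than the lists, so it gives the order of the genes only, and positions were assigned to none of them.

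The right end was divided by coordinate into a left flank (286 to 292 kb), the HMR cassette (292 to 295 kb, an approximate bound), a right flank (295 to 300 kb), a distal segment (300 to 310 kb) and a terminal segment (beyond 310 kb). The last centres lay at 316187 in the H2A.Z and 316158 in the total paired-end list. Values are set beside those of the chromosome body from 30 to 286 kb in the same list. Scores are the authors' own and have no stated scale, so each was turned into a percentile within its list, from 0 for the lowest to 100 for the highest score. Intervals are 95% order-statistic intervals for medians and exact Clopper-Pearson intervals for shares. Both run over positions, which are not replicates, and cover counting error only.

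The cassette held much the same sparse array of nucleosomes in both libraries, with 13 H2A.Z and 16 total paired-end positions. These are 4.24 and 5.08 positions per kb, against 7.15 and 7.45 per kb in the body. By single-end data the densities were closer, 4.59 (H2A.Z) and 4.38 (total) per kb, against 5.90 and 5.93. Paired-end neighbours less than 100 bp apart made up 0% (H2A.Z) and 13.3% (total) in the cassette, against 26.2 and 30.3% in the body. The densities also count a stretch, described below, that lay outside the regions in which the authors modelled positions. From left to right, the H2A.Z centres at 292332 and 292484 were followed by a distance of 389 bp to the next centre at 292873. The total centres at 292339 and 292484 were followed by a distance of 388 bp to 292872. Nothing lay inside this distance in the paired-end lists or in the total single-end list. The H2A.Z single-end list had 1 centre there, at 292687, the lowest-ranked of all 1859 in that list, with a standard error of 27.0 bp.

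The nucleosome at the left border of this first wide distance was sharp and ranked high in every list. Its centre lay at 292484, 292482, 292484 and 292483 in the H2A.Z paired-end, H2A.Z single-end, total paired-end and total single-end lists, at percentiles of 84.4, 78.8, 91.9 and 88.2. Its reverse reads had an SD of 15.8 bp in the H2A.Z and 14.2 bp in the total paired-end list, against medians of 27.1 and 25.5 bp in the body. The neighbours on its left ranked lower. The H2A.Z position at 292144 was at percentile 6.85, and its total partner 17.9 bp away at 292162 was at 66.6. Total chromatin alone had a further paired-end centre at 292025, at percentile 39.4. The centre at 292332 (H2A.Z) and 292339 (total) was at 66.0 in the H2A.Z and 37.7 in the total list, the only cassette pair higher in H2A.Z by 25 points or more.

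Right of the first wide distance a pair of nucleosomes stood 171 bp apart in the H2A.Z list and 172 bp apart in the total list. The first, at 292873 and 292872, was at percentile 74.1 in H2A.Z and 63.1 in total chromatin. The second, at 293044 and 293045, was at 77.3 and 70.6. The longest distance of the whole right end followed, 661 bp to 293705 in the H2A.Z paired-end list and 664 bp to 293709 in the total paired-end list. The single-end lists gave 665 bp (H2A.Z) and 659 bp (total), and none of the 4 lists had a centre inside. The authors' candidate regions, within which positions were modelled, also left this stretch out. By paired-end data it was uncovered from 293145 to 293574 in H2A.Z, over 430 bp, and from 293157 to 293564 in total chromatin, over 408 bp. Why these stretches hold no candidate region was not tested.

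The right part of the cassette opened with a weak nucleosome and then held its strongest one. The position at 293705 was at percentile 26.6 in H2A.Z, and its total partner at 293709 was at 14.0. The next centre, at 293867 in H2A.Z and 293870 in total chromatin, ranked 97 of 2264 and 22 of 2353, which made it the highest-scoring total position of the entire right end by paired-end data. It lay 162 bp from its left neighbour in H2A.Z and 161 bp in total chromatin, and its standard error was 0.938 and 0.753 bp. In the single-end lists it ranked 91 of 1859 (H2A.Z) and 25 of 1881 (total), where the total position at 289257 in the left flank ranked higher, at 23. Which cassette positions lie in sequence shared with MAT was not determined, so DNA of MAT and HMR was not told apart in these ranks.

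Between this nucleosome and the next strong one the libraries differed in shape. The H2A.Z paired-end list had a single broad position at 294057, with a forward SD of 38.2 bp and a percentile of 30.0. The total paired-end list had 2 sharp centres 55.5 bp apart, at 293999 and 294055, with forward SDs of 18.2 and 21.2 bp and percentiles of 64.8 and 68.9. The single-end lists each had 1 broad position here, at 294056 with a forward SD of 37.9 bp in H2A.Z and at 294030 with 32.1 bp in total chromatin, at percentiles of 34.8 and 72.9.

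The second strong nucleosome of the cassette lay at 294194 in H2A.Z, at percentile 92.7, and at 294199 in total chromatin, at 95.4. Beyond it the ranks fell away. The H2A.Z centres at 294368 and 294580 were at 18.1 and 1.46, and the total centres at 294341 and 294549 were at 20.1 and 2.68. The centre at 294701 (H2A.Z) and 294691 (total) was at 52.9 and 56.2. A total centre at 294787, at percentile 2.72 with a standard error of 13.9 bp, had no H2A.Z centre within 73 bp. The last nucleosome of the cassette, at 294973 and 294976, was at 85.3 in H2A.Z and 81.5 in total chromatin.

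**Figure D1:**
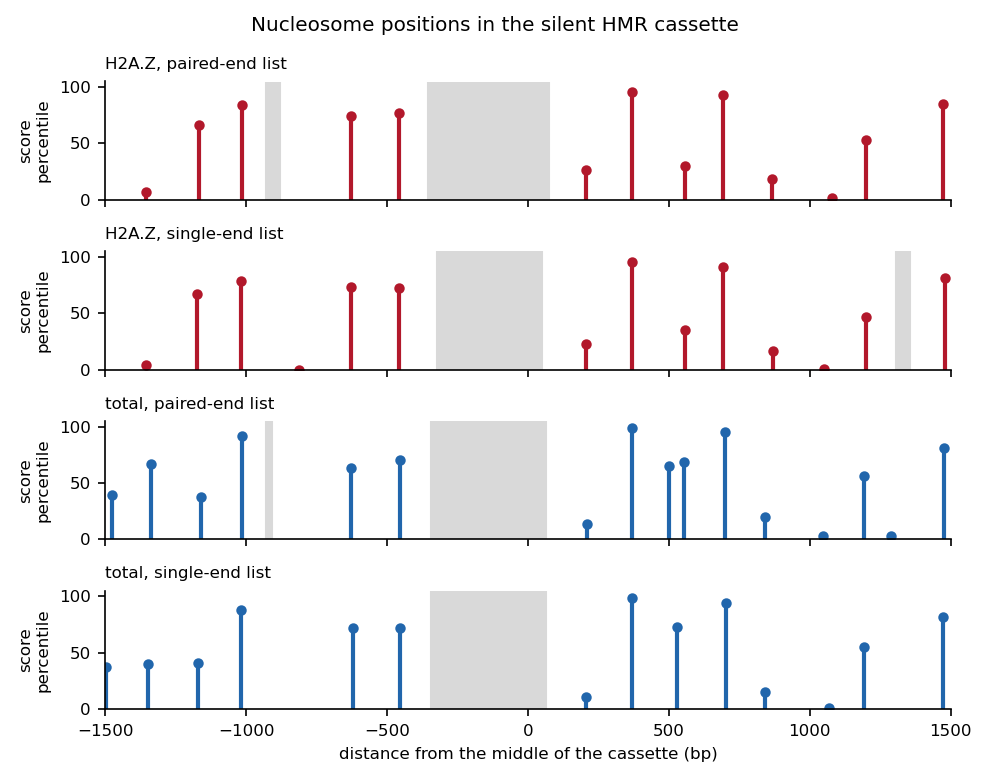
Nucleosome positions in the HMR cassette in the 4 lists. The x axis is the distance of each centre from the middle of the cassette (bp), the height of each stem is the score percentile within its own list, and grey marks stretches outside every candidate region. The strongest position, at percentiles of 95.8 (H2A.Z) and 99.1 (total) in the paired-end lists, stands right of the widest empty stretch in all 4 lists.

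Cassette positions recurred closely between lists. Of the 13 H2A.Z paired-end positions, 10 had a centre within 20 bp in all of the other 3 lists, or 76.9% (46.2 to 95%), against 51.1% of body positions (48.8 to 53.4%). Of the 16 total positions, 10 did, or 62.5% (35.4 to 84.8%), against 48.9% in the body (46.6 to 51.1%). For those found in all lists, the centres spanned a median of 5.52 bp over the 4 lists in the cassette (2.75 to 13.0 bp) and 9.39 bp in the body (8.84 to 9.98 bp). The intervals of cassette and body overlap, and the lists of 1 library share the same DNA sample. Recurrence was similar in the left flank, with 29 of 39 H2A.Z positions, or 74.4% (57.9 to 87.0%). Of its 43 total positions 27 recurred, or 62.8% (46.7 to 77.0%). Its centres spanned medians of 9.87 bp (H2A.Z) and 9.78 bp (total) over the 4 lists.

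H2A.Z and total ranks were close in the cassette. Over 11 mutually nearest paired-end pairs within 20 bp, the H2A.Z percentile minus the total percentile had a median of -2.66 points (-39.0 to 12.6), against -2.36 points in the body (-3.77 to -0.948). By single-end lists the values were -0.861 points in the cassette (-9.40 to 11.5) and -1.64 in the body (-3.18 to -0.308). Only 1 of the 11 paired-end pairs was higher in H2A.Z by 25 points or more, and 2 were lower by as much. Over the whole chromosome 15.0% of 1555 pairs were higher by this measure and 16.3% were lower. The cassette count is too small to set it apart from these shares.

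A further measure of the cassette differed from the body in total chromatin, more by paired-end than by single-end data. It was also low in the right flank. The distance between forward and reverse read peaks, which reflects the length of DNA left by MNase, had a median of 119.8 bp over the 16 total paired-end positions (117 to 123 bp), against 126 bp in the body. Of 84 body windows of 3 kb laid end to end, 1 had a lower median. In the H2A.Z paired-end list the median was 124 bp in the cassette (118 to 129 bp) and 125 bp in the body, and 26 of 84 windows were lower. The single-end lists gave 127 bp for H2A.Z, with 37 of 84 windows lower, and 123 bp for total chromatin, with 10 of 84 lower. In the right flank the total median was 122.9 bp by paired-end data, with 5 of 51 windows of 5 kb lower. By single-end data it was 123.4 bp, with 4 of 50 lower. For total chromatin of the whole right end, 1 of 8 windows of 30 kb was lower in each list type.

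In total chromatin the left flank had the highest share of single-end distances of 140 to 200 bp among the 5 segments. Such distances made up 68.8% of its 32 H2A.Z single-end distances (50.0 to 83.9%) and 77.1% of its 35 total single-end distances (59.9 to 89.6%), against 59.9 and 66.2% in the body. It held the highest-scoring position of the entire H2A.Z paired-end list, at 289253, which ranked 42 in total chromatin. This nucleosome faced a second strong H2A.Z position at 289540 across 288 bp with no centre in any list. That second position ranked 71 of 2264 in H2A.Z and 1113 of 2353 in total chromatin, percentiles of 96.9 and 52.7.

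Another strong H2A.Z position of the left flank, at 286743, ranked 12 of 2264, and its total partner at 286748 ranked 271 of 2353. On its left the total list had no centre for 301 bp, and the next total centre, at 286448, was at percentile 20.0. The H2A.Z paired-end list had 1 centre inside that distance, 200 bp from 286743, whereas the H2A.Z single-end list had none over 315 bp. The nucleosome on the other side of 286743 was strong in both libraries, at 286907 with rank 161 in H2A.Z and at 286906 with rank 27 in total chromatin.

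A further high-ranking total position of the left flank, at 289863, ranked 32, and its H2A.Z partner at 289870 ranked 184. Over the 32 paired-end pairs of the left flank the median H2A.Z minus total difference was -2.71 points (-13.2 to 11.0), with 5 pairs higher and 5 lower by 25 points or more. These are 15.6% each, near the 15.0 and 16.3% of the whole chromosome. By windows of 2 kb, from left to right, the paired-end medians were -15.5, 2.60 and 9.19 points and the single-end medians -6.64, -1.33 and 12.5 points.

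Right of the cassette the libraries parted. Between 295 and 310 kb total positions ranked low in their own list, while H2A.Z positions ranked in the middle of theirs. In the right flank the median percentile was 50.6 for 39 H2A.Z positions (34.1 to 65.8) and 24.0 for 44 total positions (17.7 to 34.7). In the distal segment it was 58.6 for 74 H2A.Z positions (46.2 to 68.1) and 34.5 for 82 total positions (21.0 to 39.8). Body medians were 51.6 for H2A.Z and 52.3 for total chromatin. The single-end lists gave 49.5 (H2A.Z) and 18.6 (total) in the right flank, and 54.4 and 29.9 in the distal segment. The difference between libraries went with low total ranks more than with high H2A.Z ranks, which stayed near the body median.

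**Figure D2:**
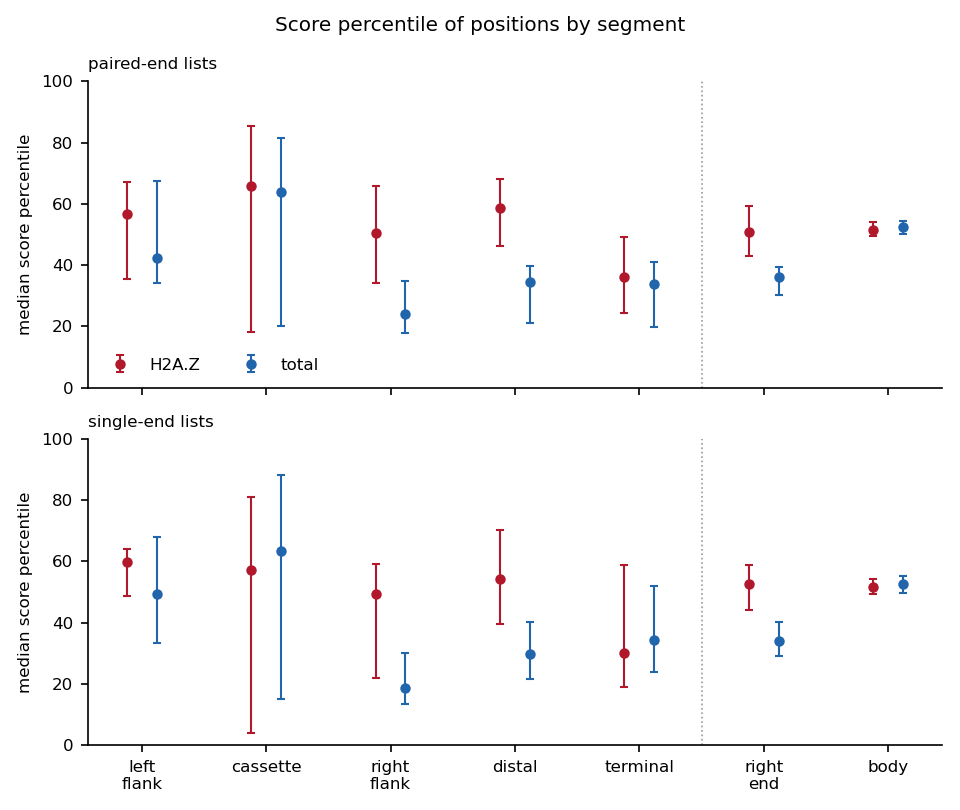
Median score percentile of positions within their own list, for the 5 segments, the whole right end and the chromosome body, H2A.Z left of total. Bars are 95% order-statistic intervals over positions. Total positions are low in the right flank and the distal segment in both list types (24.0 and 34.5 paired-end), while H2A.Z positions there stand at 50.6 and 58.6.

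Matched position by position, the distal segment stood higher in H2A.Z. The right flank did so less clearly, and its paired-end interval held the body's median of -2.36 points. The median difference in paired-end lists was 16.0 points in the right flank (28 pairs, -7.31 to 40.9) and 16.0 points in the distal segment (55 pairs, 2.04 to 35.7). In the distal segment this exceeded all 25 body windows of 10 kb, whose medians ran up to 15.1 points. In the right flank it exceeded 46 of 50 windows of 5 kb, but with a match distance of 10 bp it was 2.36 points. By single-end lists the medians were 8.31 points (23 pairs, 0.152 to 36.7), above 40 of 50 windows, and 16.3 points (50 pairs, 2.47 to 30.2), above 24 of 25 windows.

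Pairs higher in H2A.Z by 25 points or more were frequent in these segments. In paired-end lists they made up 13 of 28 in the right flank, or 46.4% (27.5 to 66.1%), and 26 of 55 in the distal segment, or 47.3% (33.7 to 61.2%). The share was 15.0% over the whole chromosome. In single-end lists they made up 10 of 23, or 43.5% (23.2 to 65.5%), and 23 of 50, or 46.0% (31.8 to 60.7%), against 13.9% over the whole chromosome. In the right flank, 9 of the 13 paired-end and 8 of the 10 single-end pairs lay between 298 and 300 kb. Pairs lower by as much numbered 3 and 5 in the paired-end lists, and 0 and 2 in the single-end lists, where 13.6% of all pairs of the chromosome were lower. Of the 51 paired-end pairs higher in H2A.Z along the whole right end, 34 had a single-end pair within 20 bp, and 32 of these were again higher by 25 points or more. In the body 110 of 172 such pairs had a single-end pair, and 82 of these were again higher. Of the 22 right-end pairs lower in H2A.Z, 17 had a single-end pair, and 10 of these were again lower by 25 points or more. Both list types come from the same libraries, so these counts compare models of 1 data set, not experiments.

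The higher ranks in H2A.Z came in clusters of neighbouring positions. Some of these overlap, so counts of pairs are not counts of separate nucleosomes. In the distal segment 30.1% of H2A.Z and 37.0% of total paired-end distances were under 100 bp. Between 304 and 306 kb all 13 paired-end pairs were higher in H2A.Z by 25 points or more, with a median of 53.1 points, and 7 of 11 single-end pairs were, with a median of 32.5. The pairs at 305470 and 304403, each with an extreme variance in the total list, are among the 13. Between 298 and 300 kb 9 of 12 paired-end and 8 of 12 single-end pairs were, with medians of 45.0 and 34.7 points. Between 302 and 304 kb 5 of 9 and 7 of 9 were, with medians of 26.3 and 31.6 points. Other windows of these segments lay nearer 0. From 296 to 298 kb, 300 to 302 kb and 306 to 308 kb the paired-end medians were -2.61, 1.88 and -2.42 points. A further run of higher pairs crossed the bound between the distal and the terminal segment. The H2A.Z positions at 309909 and 309995 were at percentiles of 85.4 and 82.5, while their total partners were at 20.5 and 19.4. The windows that share this run, 308 to 310 kb and 310 to 312 kb, had paired-end medians of 8.99 and 14.3 points and single-end medians of 13.3 and 16.8 points. These windows were picked after their values were seen.

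**Figure D3:**
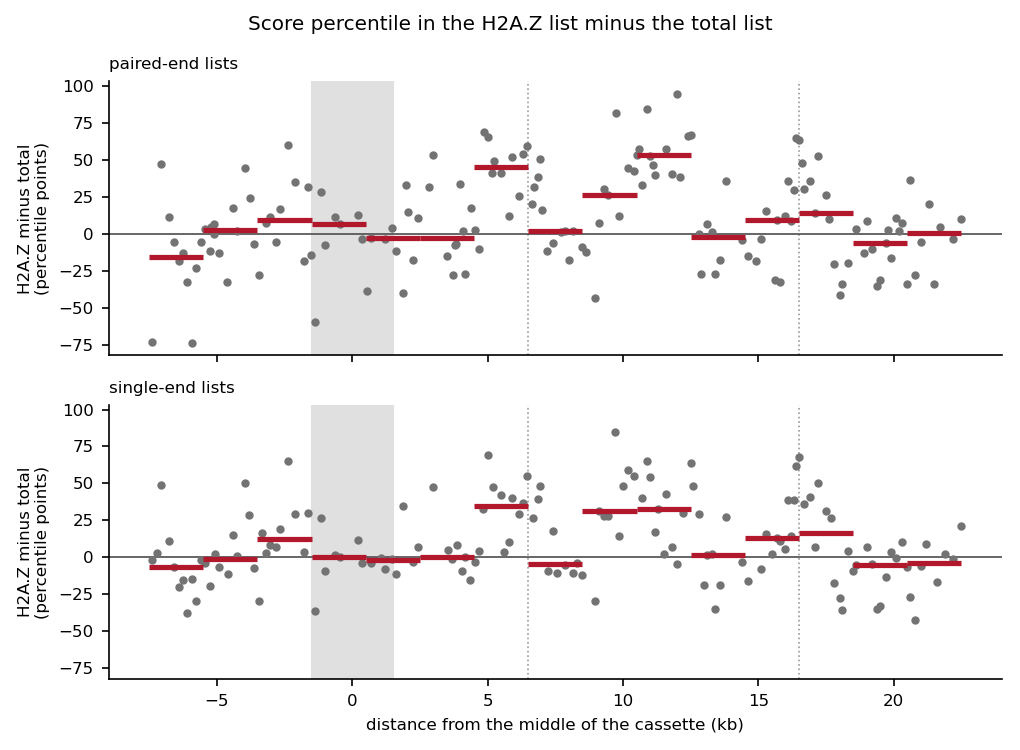
Score percentile in the H2A.Z list minus that in the total list for each matched position (grey points), against the distance from the middle of the cassette (kb). Red bars are medians of windows of 2 kb, the grey band is the cassette, and dotted lines mark 300 and 310 kb. Clusters of positive values stand right of the cassette, the highest window median being 53.1 points in paired-end lists (304 to 306 kb).

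Within the clusters individual positions differed widely in rank between the libraries. At 303227 the H2A.Z position ranked 91 of 2264, a percentile of 96.0, while its total partner at 303220 ranked 2009 of 2353, a percentile of 14.6. The difference of 81.4 points was matched by 85.0 points in the single-end lists. At 302955 the H2A.Z position ranked 60 and its total partner at 302964 ranked 681. At 305644 the H2A.Z position ranked 75 and its total partner at 305643 ranked 973. Across 286 bp from it, the H2A.Z centres at 305931 and 305991 were at 91.7 and 94.2, while their total partners at 305930 and 305993 were at 25.6 and 27.4. The single-end lists had 1 centre in place of these 2, at percentiles of 93.6 (H2A.Z) and 29.9 (total), and a distance of 315 bp (H2A.Z) and 309 bp (total) to its left neighbour.

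Some of the most extreme paired-end differences involved a position with an extreme reverse-read variance. Of the 5 largest, the pairs at 305470, 304403 and 298347 had a total position with a reverse-read SD of 115890, 267 and 463 bp, wider than the distance between neighbours, and a percentile of 0.425, 4.46 and 4.21. At 305470 the difference was 94.5 points in paired-end lists, but in single-end lists the nucleosome was at 92.7 in H2A.Z and 97.4 in total chromatin, a difference of -4.71 points. At 304403 and 298347 the single-end differences were 65.5 and 32.6 points. Of the 5 smallest, the pairs at 287580 and 286121 had such an H2A.Z position, with reverse SDs of 28099 and 373 bp. Their differences of -73.9 and -73.2 points came to -14.4 and -2.02 in single-end lists. In all, 9 of the 158 right-end pairs had a reverse variance above 10000 squared bp in either list. Without them the median of the right end was 6.71 points, against 6.57 with them.

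The remaining pairs that stood lowest in H2A.Z were spread over the right end. At 292144, in the cassette, the difference was -59.7 points in paired-end and -36.3 in single-end lists. At 302453 it was -43.6 points, with percentiles of 35.9 in H2A.Z and 79.5 in total chromatin, and -29.6 points in single-end lists. At 311478 it was -41.2 points, with a total partner 15.0 bp away at 311463 that ranked 114 of 2353.

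The terminal segment lies next to the telomere. Its positions ranked low in both libraries, with a median percentile of 36.1 for 42 H2A.Z positions (24.2 to 49.2) and 33.9 for 48 total positions (19.9 to 41.1). The median difference was 2.20 points over 32 paired-end pairs (-16.5 to 9.95) and -0.783 over 30 single-end pairs (-9.27 to 7.25). Its first 2 kb were the exception, with 14.3 points over 11 paired-end and 16.8 over 12 single-end pairs. They held an H2A.Z position at 310986 that ranked 70 of 2264, with a total partner at 310985 that ranked 694. In this H2A.Z list it lay 269 bp from its left neighbour. From 312 to 314 kb the H2A.Z percentile had a median of 23.8 and the total percentile 27.8, and 0 of 13 pairs were higher by 25 points. The total position at 311320 ranked 26 of 2353, the second highest of the right end by paired-end data, and its H2A.Z partner at 311317 ranked 494. By single-end data this total position ranked 91 of 1881, below other positions of the right end such as the one at 289257.

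Taken as a whole, the right end had a share of strong positions near that of the body in H2A.Z and a smaller one in total chromatin. Of 207 H2A.Z paired-end positions 24 were in the top 10% of their list, or 11.6% (7.57 to 16.8%), against 9.98% over the whole chromosome. Of 233 total positions 12 were, or 5.15% (2.69 to 8.82%), against 9.99%. In the body the shares were 10.5% for H2A.Z and 10.7% for total chromatin. The median total percentile of 36.0 (30.2 to 39.4) was below all 8 body windows of 30 kb, whose medians ran from 42.7 to 60.8. The H2A.Z median of 50.7 (42.9 to 59.3) lay above 4 of the 8. Over the 158 paired-end pairs the median H2A.Z minus total difference was 6.57 points (1.74 to 11.0), above all 8 windows, whose medians reached 4.00. Pairs higher in H2A.Z by 25 points or more made up 32.3% (25.1 to 40.2%), against 13.7% in the body (11.9 to 15.8%). Pairs lower by as much made up 13.9% (8.94 to 20.3%), against 16.6% (14.6 to 18.8%). By single-end lists the median was 4.58 points over 145 pairs (1.27 to 10.3), also above all 8 windows. The forward SD of total paired-end positions was 26.3 bp over the right end, against 25.2 bp in the body. For total single-end positions it was 30.6 bp (29.4 to 32.1 bp), against 29.9 bp. How the forward SD relates to the ranks was not tested.

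Most H2A.Z positions of the right end had a total position close by. Of 207 H2A.Z paired-end positions, 158 had a total centre within 20 bp, or 76.3% (69.9 to 81.9%), against 69.1% in the body (66.9 to 71.2%) and 69.4% over the chromosome. In single-end lists the shares were 81.9% (75.4 to 87.3%), 83.0% (81.0 to 84.9%) and 82.4%, so the higher share by paired-end data was not found there. Of the H2A.Z paired-end positions, 4 had no total centre within 73 bp, or 1.93% (0.529 to 4.87%), against 50 of 1830 in the body, or 2.73% (2.03 to 3.59%). In the other direction, 15 of 233 total paired-end positions had no H2A.Z centre within 73 bp, or 6.44% (3.65 to 10.4%), against 46 of 1907 in the body, or 2.41% (1.77 to 3.20%). By single-end lists these total positions without an H2A.Z centre were 7 of 186, or 3.76% (1.53 to 7.60%), against 3.23% in the body (2.40 to 4.24%). The excess of such total positions by paired-end data was thus smaller by single-end data, where the interval held the body's share. The centres of a pair were 6.12 bp apart in the right end and 5.78 bp in the body (medians).

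Median spacing along the right end was near that of the body. The median distance between neighbouring single-end centres was 163 bp in H2A.Z (156 to 167 bp) and 160 bp in total chromatin (154 to 163 bp), against 161 and 162 bp in the body. The paired-end medians were 144 bp (135 to 150 bp) and 137 bp (125 to 143 bp), against 140 and 137 bp. Neighbours less than 100 bp apart, a distance shorter than the DNA of a nucleosome, made up 22.8% of right-end distances of the H2A.Z paired-end list (17.3 to 29.2%) and 31.5% in the total list (25.5 to 37.9%). Body shares were 26.2 and 30.3%. By single-end data such close neighbours made up 10.2% in H2A.Z (6.17 to 15.7%) and 13.0% in total chromatin (8.49 to 18.7%), against 9.14% (7.73 to 10.7%) and 7.91% (6.6 to 9.38%) in the body. Single-end distances of 140 to 200 bp made up 57.4% in H2A.Z (49.7 to 64.8%) and 58.4% in total chromatin (50.9 to 65.6%), against 59.9% (57.3 to 62.4%) and 66.2% (63.8 to 68.6%) in the body. By single-end data total chromatin of the right end thus had a median distance near that of the body but fewer distances in this range. The total paired-end share was 41.8% (35.4 to 48.4%), against 42.0% in the body. Once the lower-scoring of neighbours under 100 bp apart was dropped, the total single-end share was 68.9% (61.2 to 75.8%). The body's share was then 72.5%, inside that interval.

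The right flank was the least regular segment in total chromatin. Distances of 140 to 200 bp made up 45.2% of its 31 H2A.Z single-end distances (27.3 to 64.0%) and 32.4% of its 37 total single-end distances (18.0 to 49.8%), against 59.9 and 66.2% in the body. Its median distance was 164 bp in H2A.Z (133 to 175 bp) and 131 bp in total chromatin (106 to 159 bp). Total centres less than 100 bp apart made up 29.7% there, against 7.91% in the body. Only 27.3% of its 44 total paired-end positions recurred in all 4 lists (15.0 to 42.8%), against 48.9% in the body, and 41.0% of its 39 H2A.Z positions did (25.6 to 57.9%), against 51.1%. Once the lower-scoring of neighbours under 100 bp apart was dropped, its single-end median was 167 bp in H2A.Z (147 to 195 bp) and 177 bp in total chromatin (162 to 187 bp).

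Total positions right of the cassette were also fuzzier by their medians, with intervals that partly held the body's value. The SD of forward reads around a centre had a median of 31.2 bp in the H2A.Z (29.3 to 35.4 bp) and 33.6 bp in the total single-end list (29.7 to 35.6 bp) in the right flank. In the distal segment it was 31.7 bp (30.2 to 33.0 bp) and 33.4 bp (30.1 to 35.4 bp), and in the body 30.8 and 29.9 bp. Total chromatin exceeded 47 of 50 body windows in the right flank and all 25 in the distal segment, while H2A.Z exceeded 31 of 50 and 17 of 25. With paired-end data total chromatin exceeded 48 of 51 and 22 of 25 windows, and H2A.Z 17 of 50 and 9 of 25. The total paired-end medians were 27.2 bp (25.7 to 28.7 bp) in the right flank and 26.2 bp (25.1 to 27.1 bp) in the distal segment. The right-flank single-end and the distal paired-end total interval held the body's value. In the terminal segment total chromatin exceeded 39 of 42 paired-end and 31 of 42 single-end windows, and H2A.Z 34 and 32 of 42. In paired-end lists the right-end medians were 26.9 bp in H2A.Z (26.0 to 27.6 bp) and 26.3 bp in total chromatin (25.5 to 26.8 bp), against 26.9 and 25.2 bp in the body. Single-end lists gave right-end medians of 30.8 bp in H2A.Z (29.7 to 31.6 bp) and 30.6 bp in total chromatin (29.4 to 32.1 bp). Both intervals held the body's value, and total chromatin exceeded 6 of 8 body windows of 30 kb. At matched paired-end pairs the forward SD was wider in H2A.Z by a median of 1.11 bp in the body (0.840 to 1.44 bp), while in the distal segment the H2A.Z minus total difference was -1.0 bp (-2.50 to 0.914 bp).

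**Figure D4:**
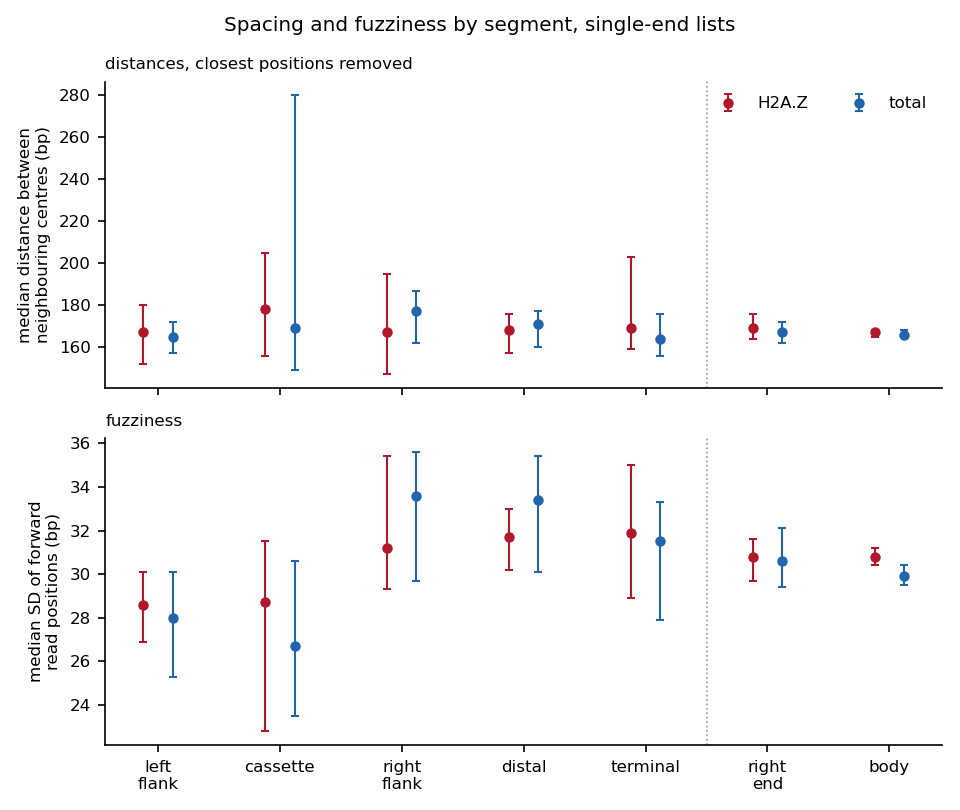
Median distance between neighbouring centres after dropping the lower-scoring of neighbours under 100 bp apart (top, bp) and median SD of forward reads (bottom, bp) in the single-end lists, H2A.Z left of total. Bars are 95% order-statistic intervals over positions. Distances stay between 164 and 178 bp in all segments, and the total SD is 33.6 bp in the right flank and 33.4 bp in the distal segment, against 29.9 bp in the body.

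Outside the cassette the widest stretch without centres lay in the distal segment. It ran for 483 bp from 307294 to 307777 in the H2A.Z and for 518 bp from 307401 to 307919 in the total paired-end list. By single-end lists it was longer, 613 bp in H2A.Z and 635 bp in total chromatin. Each paired-end list had 1 weak centre inside the stretch left empty by the other. Candidate regions left it uncovered from 307406 to 307688 in the H2A.Z list and from 307484 to 307688 in the total list. At its borders the H2A.Z position at 307294 was at percentile 83.7, and the one at 307777 was at 0.707. The third of the longest paired-end distances in each library was the one of 389 bp (H2A.Z) and 388 bp (total) in the left part of the cassette.

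The share of pairs beside a wide distance was set against that of the body. In single-end lists 14 of 46 right-end pairs higher in H2A.Z lay beside a distance of more than 200 bp in the total list, or 30.4% (17.7 to 45.8%). Of the other 99 pairs 19 did, or 19.2% (12 to 28.3%). In the body the shares were 28.0% (21.2 to 35.6%) and 18.8% (16.6 to 21.3%).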

How the data were processed

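The labels and file names give 2 yeast libraries with a paired-end and a single-end list each. The series title names PING, which models the read starts on both strands, and the submitters' processing notes name BWA, SAMtools and sacCer2, without settings. The deposited centre, peak distance and standard error are named per the file headers and were read as bp from their values, and the variances as squared bp. The mixing weight is a deposited fraction. The score is the authors' own, and its scale is not stated in the sources used here.

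Members and measures were chosen with earlier results of these data known. Python 3.11.15 was used, with pandas 2.3.3, scipy 1.17.1 and numpy 2.4.6. Rank differences used mutually nearest centres within 20 bp. The calculations were tested on simulated data. Positions named are those of the cassette, the 5 highest scores, the 3 longest distances and the 5 largest and 5 smallest rank differences of the paired-end lists; other positions were chosen after their values were seen. Alternatives covered list type, match distance, score filters, close centres, cassette bounds and the comparison stretch.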

Additional observations from a re-analysis of the deposited data

How the results depend on the processing

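No paired analysis was possible because each group has 1 library, which also means that none could be left out. Of 90 alternatives to 18 results, 84 moved by no more than a set width. That width was what counting error allows, except for the longest distance of the cassette. There it was set from the standard error of 1 centre, giving 5.13 bp in H2A.Z and 3.93 bp in total chromatin. For the rank difference that width was 24.1 points in the right flank and 25.8 in the cassette. Large moves and changes of sign there also count among the 84, so the tally does not show that these medians are stable. The matched share of the right end exceeded that of the body by 7.26 percentage points in paired-end lists and by 5.46 with a match distance of 10 bp. It was -1.07 points in single-end lists, -4.23 in the upper 75% of scores, and 0.614 and 0.800 with match distances of 50 and 73 bp. The cause was not tested. The lower total percentile of the right end, -16.3 points against the body, was -22.8 once the lower-scoring of neighbours under 100 bp apart was dropped. The longest distance of the cassette in total chromatin, 664 bp, was 659 bp in the single-end list. The median H2A.Z minus total difference of the right end, 6.57 points, ran from 4.58 (single-end lists) to 7.95 (close positions removed). Medians near 0 changed sign, from -5.52 to 2.23 in the left flank, -3.35 to 2.03 in the cassette and -0.783 to 2.64 in the terminal segment. In the right flank it was 16.0 points and fell to 2.36 with a match distance of 10 bp, while the distal segment had 26.3 there. Limits on the standard error and on the reverse variance were added after seeing the data. The number of pairs per segment limits all segment medians, and unknown depth leaves the scores without a scale.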

Other observations

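The identifiers of the paired-end lists run along the chromosome, except for the first few. In the H2A.Z list 7 identifiers, with 12 positions, come before the identifier 8 of the first position of the chromosome, and in the total list 9 identifiers, with 16 positions, come before the identifier 10. The nucleosomes of the cassette at 292873 and 293044 (H2A.Z, identifier 7) and at 292872 and 293045 (total, identifier 9) are among them. Of these positions, 9 of 12 in H2A.Z and 10 of 16 in total chromatin lay within 200 bp of the edge of a distance of more than 600 bp without centres. The share of all positions this near such an edge is not given here, so these counts have no background. Each list has 8 such distances, and 7 of them in each list had such a position at an edge, the cassette's among them. The meaning of the identifiers is not given in the sources used here.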
